A study of Mus musculus with 1 sample.

Results

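The smooth muscle type contractile genes examined here were Acta2, Tagln, Cnn1, Myl9, Tpm1, Tpm2, Actg2, Cald1, Myh11 and Srf, on the array of shCtrl-treated D3 ESCs. A gene entered through probe sets that the array's annotation tied to that gene symbol alone. All 10 were found, each with 1 probe set, among 22180 named genes. D3 is a mouse embryonic stem cell line, which the methods describe as grown with LIF on mitomycin-C-treated mouse embryonic fibroblasts (MEFs). The labels give a retroviral infection with the control shRNA (shCtrl) for 48 h, whereas the methods describe a transfected plasmid and a longer time in culture. The RNA of all cells harvested by trypsin was measured on 1 Affymetrix mouse gene array, and no array of CCP6-depleted cells was used here. The genes were picked because the level of Acta2 was already known to be very high on this array. All levels are therefore given as a description, and with 1 array there is no error of any value and no test.

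Smooth muscle cells contract when myosin filaments pull on actin filaments that carry tropomyosin, caldesmon and calponin. Fibroblasts that turn into myofibroblasts, as in wounds or on stiff culture plastic, take up part of this machinery, with Acta2 and Tagln as its usual marks. Mature smooth muscle in addition makes the myosin heavy chain Myh11 and a set of late proteins. Many of these genes are switched on by the transcription factor SRF, which binds DNA elements called CArG boxes together with partners of the myocardin family.

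Promoter sequence was at hand for 7 of the 10 genes, from RefSeq on GRCm38.p6, as windows from 250 bases before to 50 bases after each annotated start. Windows for Tagln, Actg2 and Myh11 were not used here. A CArG box was searched as CC, 6 letters that are A or T, and GG, a pattern that reads the same on both strands. It was present in the windows of 2 of the 7 genes, Srf and Myl9, and in those of 1.81% of the 27025 genes with a window. Of lists read below, it was in 0 of 13 mature smooth muscle genes and 2 of 17 genes typical of differentiated organs. The windows below are those of the gene of the factor itself, of a myosin light chain, and of Acta2. Capitals mark the CArG boxes in Srf (chr17:46556113-46556412, minus strand) and Myl9 (chr2:156775214-156775513, plus strand). In Acta2 (chr19:34255324-34255623, minus strand) they mark stretches that differ from the CArG pattern by 1 letter.
Srf: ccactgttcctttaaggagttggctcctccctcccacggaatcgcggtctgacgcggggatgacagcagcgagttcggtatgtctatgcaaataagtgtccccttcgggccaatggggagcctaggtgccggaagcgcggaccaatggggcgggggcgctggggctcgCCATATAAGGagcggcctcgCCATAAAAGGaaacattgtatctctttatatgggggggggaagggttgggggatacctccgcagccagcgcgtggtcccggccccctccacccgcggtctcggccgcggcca
Myl9: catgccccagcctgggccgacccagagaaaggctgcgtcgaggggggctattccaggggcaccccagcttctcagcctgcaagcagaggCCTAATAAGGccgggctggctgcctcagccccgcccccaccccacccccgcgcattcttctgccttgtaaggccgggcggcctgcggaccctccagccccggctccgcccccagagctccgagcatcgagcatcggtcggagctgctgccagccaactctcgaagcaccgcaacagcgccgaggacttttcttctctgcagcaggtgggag
Acta2: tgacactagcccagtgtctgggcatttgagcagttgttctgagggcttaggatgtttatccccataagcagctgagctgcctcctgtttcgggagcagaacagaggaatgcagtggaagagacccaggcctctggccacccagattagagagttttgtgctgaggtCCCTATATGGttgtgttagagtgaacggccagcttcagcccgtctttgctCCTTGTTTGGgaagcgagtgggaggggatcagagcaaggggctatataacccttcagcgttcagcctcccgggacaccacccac

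The Srf window held its boxes at -82 to -73 and -62 to -53 from the start, and only 5 of the 27025 genes had 2 or more boxes in a window. The box of Myl9 lay at -161 to -152. Counting stretches with 1 letter changed as well, 5 of the 7 genes had a match, against 23.8% of all genes with a window. These were Acta2 at -84 to -75 and -34 to -25, Tpm1 at -221 to -212 and -80 to -71, and the first of the windows of Cald1 at -203 to -194, beside Srf and Myl9. Most other gene lists read below were also above the 23.8% of all genes. For example, the share was 50% for endothelial genes and 41.2% for genes typical of differentiated organs. It was under 23.8% for calponins and transgelins (20%) and for contraction control genes (10%). The windows of Cnn1 and Tpm2 held no stretch of either kind, which says only that these letters are not in these windows. The MCAT element, CATTCC on either strand and known as a site of TEAD factors, was in the windows of 3 of the 7 genes (Acta2, Tpm1 and Cald1), against 16.6% of all genes. Across the lists read below, the MCAT share ran from 11.1% for ESC genes to 50% for actin genes. TATAAA on either strand was in the windows of Srf and Cald1, against 15.7% of all genes. In Srf it overlapped a further CArG stretch with 1 letter changed at -39 to -30.

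**Figure D1:**
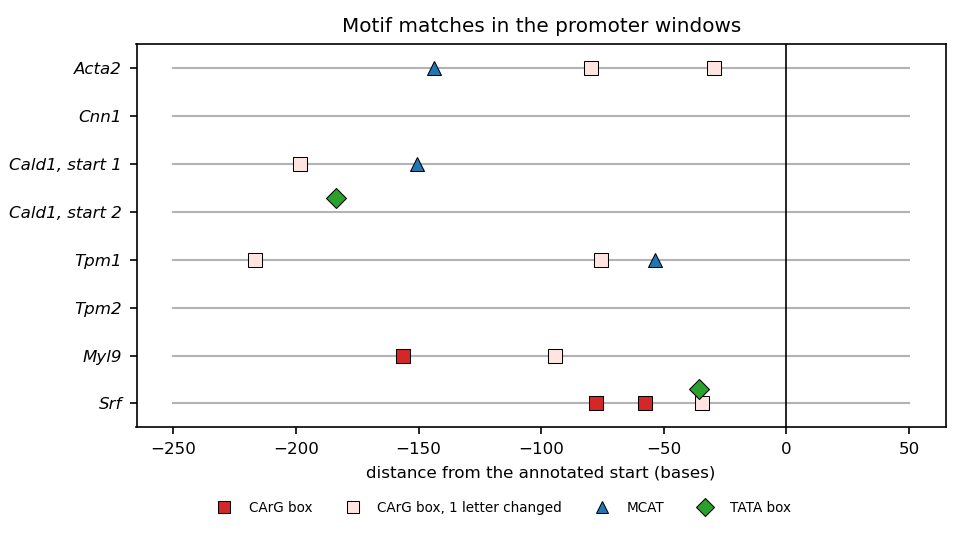
Each line is a promoter window of 1 gene (both annotated starts for Cald1), with distance from the start in bases on the x axis. Squares are CArG boxes (red for the exact pattern, pale for 1 letter changed) and triangles MCAT elements. Diamonds, drawn above the line and labelled TATA box, are matches to TATAAA on either strand anywhere in the window. The exact pattern stands in Srf, at -82 to -73 and -62 to -53, and in Myl9, at -161 to -152.

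To call a level, the 95th percentile of the probe sets of olfactory receptor genes, which are largely silent outside the nose, was used as a floor (a log2 value of 2.53). Their 99th percentile, 3.38, was a stricter floor, and the 75th percentile of all named genes, 5.29, a high limit. All 10 contractile genes lay above the floor, compared with 62.0% of named genes. All 10 also lay above the stricter floor, compared with 47.4%. Above the high limit were 8 of them, compared with 25.0% of named genes by construction, and the exceptions were Actg2 and Myh11. The median log2 value of the 10 genes was 6.90, against 3.20 for all named genes. Probe sets differ in brightness at the same amount of RNA, so the genes were read against these limits and not ranked against each other.

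Among the thin filament actins, Acta2 had a log2 value of 10.25. It encodes smooth muscle alpha-actin, the main actin of vascular smooth muscle and the usual mark of myofibroblasts. Actg2, the gamma-actin of gut and other visceral smooth muscle, had a log2 value of 4.75. Acta2 was thus above the high limit, whereas Actg2 was above the stricter floor but under that limit. The actin proteins are nearly identical, and the probe sequences were not analysed here, so signal that these genes may share was not separated.

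The actin-binding members were all above the high limit. Tagln (SM22 alpha), which bundles actin and is among the first smooth muscle genes to appear, had a log2 value of 8.52. Cald1, whose caldesmon holds back myosin on the actin filament and which also has a form in non-muscle cells, had a log2 value of 8.62. Cnn1, the calponin of differentiated smooth muscle, had a log2 value of 6.41. For the tropomyosins, which lie along the actin filament, the log2 value was 7.92 for Tpm1 and 6.64 for Tpm2. Both genes also give non-muscle or other muscle forms through splicing, which 1 probe set a gene does not tell apart.

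The myosin members parted at the same limit. Myl9, the regulatory light chain that is phosphorylated when smooth muscle contracts and that non-muscle cells use too, had a log2 value of 7.17. Myh11, the heavy chain that is held to be the most specific protein of smooth muscle, had a log2 value of 4.49, above the stricter floor but not above the high limit. Srf itself, which is present in most cells, had a log2 value of 6.31 and was above the high limit.

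**Figure D2:**
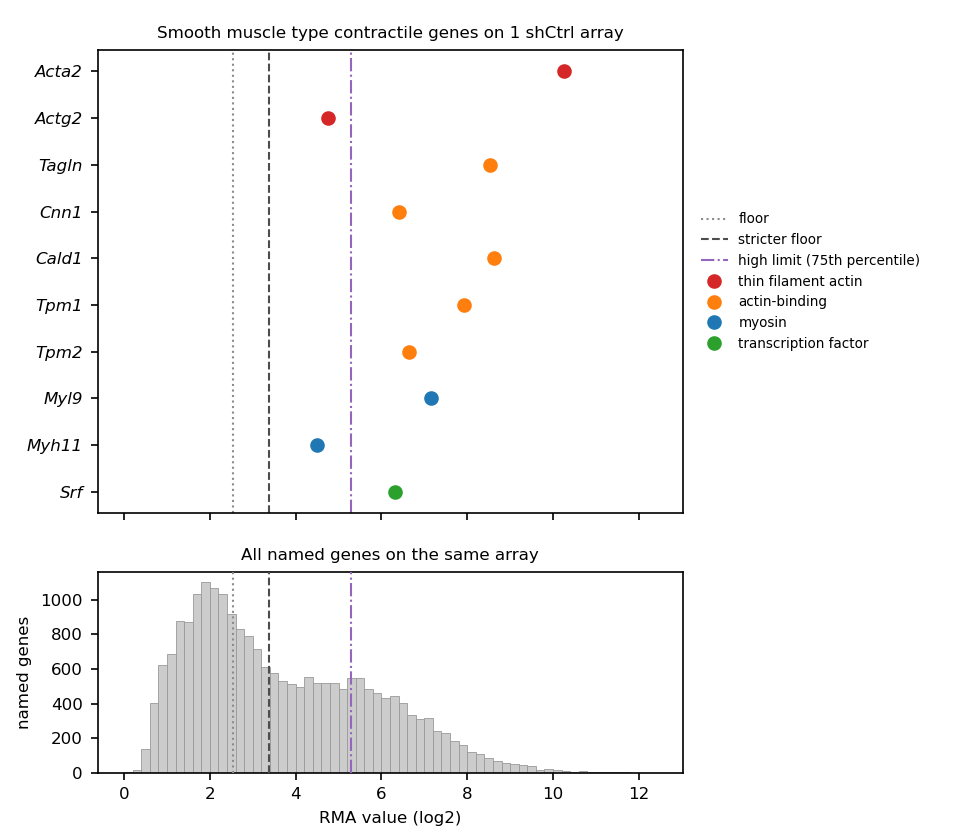
The upper panel gives the RMA value (log2) of the 1 probe set of each gene, coloured by the role of the protein, and the lower panel the number of named genes at each value. All 10 points lie right of the stricter floor (3.38), and Actg2 (4.75) and Myh11 (4.49) are those left of the high limit (5.29).

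Relatives of the contractile genes in the same families were then read on the same limits. All 6 actin genes were above the floor, against 62.0% of named genes. The log2 value was 7.89 for Actb and 7.79 for Actg1, the cytoplasmic actins of every cell. For Actg1 that was the mean of 6 probe sets between 3.41 and 9.28. Acta1, the skeletal muscle actin, had a log2 value of 4.83, and Actc1, the cardiac one, had 2.81 and was above the floor but not the stricter floor. Of the 4 actin genes with a promoter window, 3 held an exact CArG box (Actg1, Acta1 and Actc1) and Acta2 held the stretches shown before. The boxes of these relatives are given with 10 bases on each side, and capitals mark the box, to set the high cytoplasmic actin beside the actin near the floor.
Actg1, at -90 to -81 (chromosome 11): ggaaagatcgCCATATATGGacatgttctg
Acta1, at -73 to -64 (chromosome 8): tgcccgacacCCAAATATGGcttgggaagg
Actc1, at -47 to -38 (chromosome 2): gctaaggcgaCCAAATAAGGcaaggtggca
A box in the window thus stood beside high and low levels alike. Over the array, 61.7% of the 282 named genes with an exact box in a window were above the floor, against 63.4% of 16636 named genes with a window and no such box.

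All 6 calponin and transgelin genes were above the stricter floor, and 5 were above the high limit, against 47.4% and 25.0% of named genes. Next to Cnn1 and Tagln, the log2 value was 8.63 for Cnn2 and 9.44 for Cnn3, calponins that many non-muscle cells make. It was 6.89 for Tagln2, averaged over probe sets at 5.88 and 7.90, which is found in many tissues. Tagln3, a neuronal form, had a log2 value of 3.68 and was the 1 family member under the high limit. Of the tropomyosins, Tpm4, a mainly cytoplasmic form, had a log2 value of 8.09 (probe sets at 7.50 and 8.69). Tpm3 had 4.54, averaged over probe sets at 2.21, under the floor, and 6.87, so its place was unsettled.

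Against 62.0% of named genes, 4 of 12 myosin heavy chain genes were above the floor. They were Myh9 (log2 value 9.06) and Myh10 (7.00), the heavy chains of non-muscle myosin, Myh11 (4.49), and Myh14 (3.23), a further non-muscle form that was not above the stricter floor. The 8 sarcomeric heavy chain genes were all under the floor, between 1.31 for Myh4 and 2.43 for Myh3. These include Myh1 (2.09) and Myh2 (1.68) of adult skeletal muscle, Myh6 (2.20) and Myh7 (2.04) of the heart, and Myh8 (1.97) and Myh13 (2.26). Myh11 was therefore the 1 heavy chain of a muscle cell on this list to pass the floor.

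Of 12 myosin light chain genes, 9 passed the floor and 5 the stricter one, against 62.0% and 47.4% of named genes. The median of the light chain genes was 3.17, against 3.20 for all named genes. The high limit was passed by 25% of the light chain genes, against 25.0% of named genes. The genes not above the floor were Myl2 (2.09) and Myl3 (2.52) of the cardiac ventricle and slow muscle, and Myl7 (2.28) of the atrium. Myl1 of fast skeletal muscle had a log2 value of 3.48 and Myl4 of 2.63. Mylpf (2.99) and Myl10 (2.66) were between the floors, as was Myl6b (3.35), and Myl6 (4.74) was above the stricter floor. The 3 genes above the high limit were Myl9, Myl12a (5.65, from probe sets at 4.39 and 6.92) and Myl12b (7.35), the last pair being light chains of non-muscle myosin. The light chain genes from Mylpf on were named after their values were seen, other than Myl9.

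**Figure D3:**
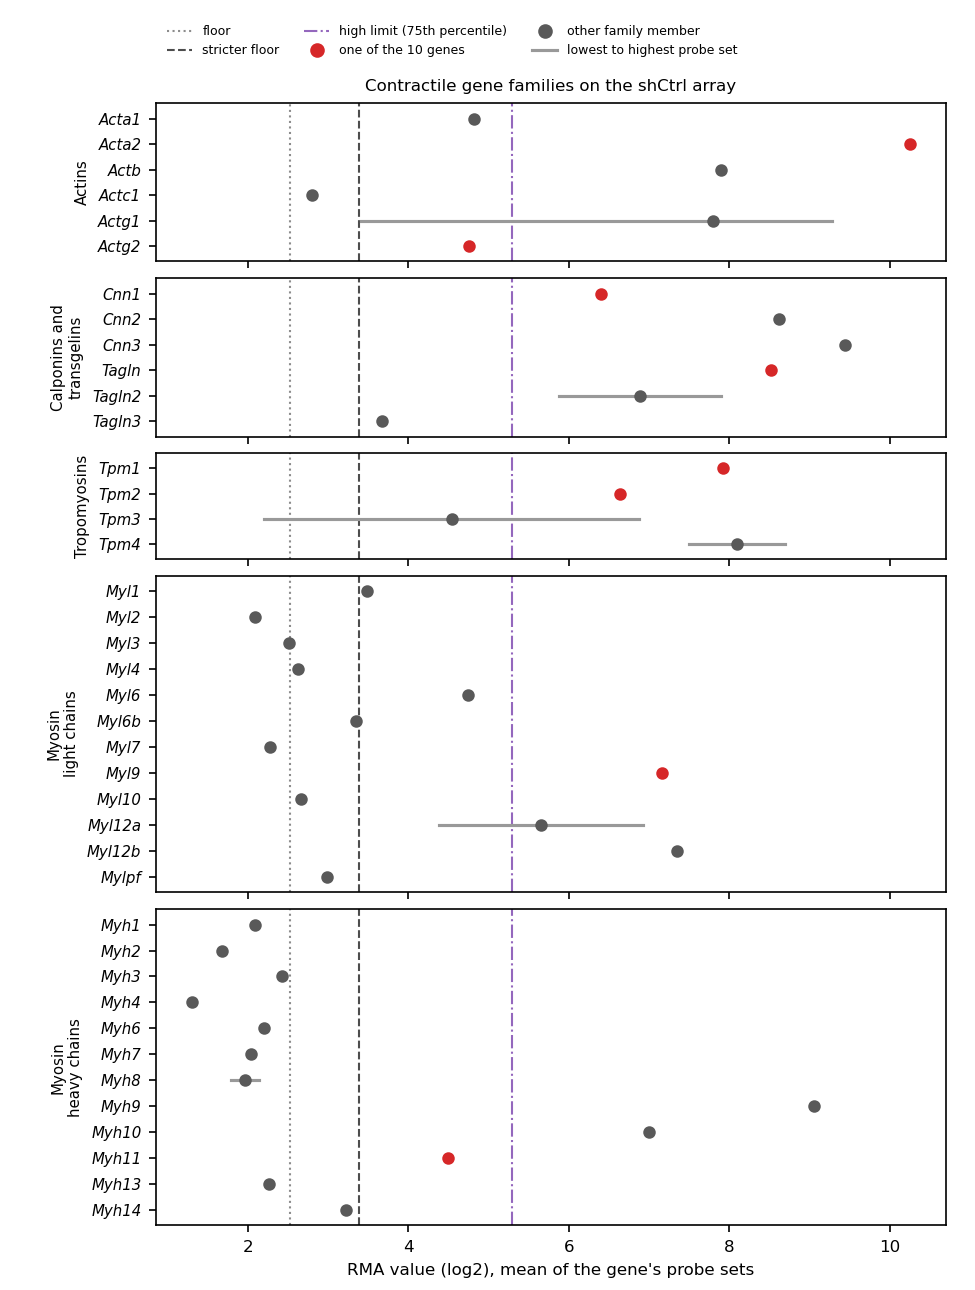
Points are RMA values (log2, mean over the probe sets of a gene) for the actin, calponin and transgelin, tropomyosin and myosin families, in red for the 10 contractile genes. Grey bars span the lowest to the highest probe set. The 8 sarcomeric heavy chains lie left of the floor (2.53), whereas Myh9 (9.06) and Myh10 (7.00) lie right of the high limit.

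The genes that myofibroblasts share with smooth muscle were compared with a list of mature smooth muscle genes. All 7 genes of the myofibroblast type (Acta2, Tagln, Cnn1, Myl9, Tpm1, Tpm2 and Cald1) were above the high limit, with a median log2 value of 7.92. Of 16 mature smooth muscle genes, 15 passed the floor and 12 the stricter floor, and 0 passed the high limit, with a median of 3.65. Against 62.0% and 47.4% of named genes and their median of 3.20, the mature list was thus above the whole array at both floors, and under it at the high limit (25.0%). The high limit was added after the data were seen, and at the lower limits tried the mature list gave 11 to 15 of 16 genes. Without Acta2, whose level led to the choice of genes, the other 6 myofibroblast type genes were all above the high limit, with a median of 7.54. The place of Smtn under the high limit rests on averaging probe sets at 1.76 and 5.87, and the higher of these would be above it. The split into these lists was drawn up with the level of Acta2 and other earlier results of these data known. Leaving out Acta2 therefore does not remove the effect of that choice. The split also depends on Cnn1 (6.41), a calponin of differentiated smooth muscle that was placed with the myofibroblast type. In the mature list, Cnn1 would have been a gene above the high limit.

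Among the mature genes, Hspb6 (log2 value 4.96), a small heat shock protein of muscle, and Ppp1r14a (4.76), which inhibits myosin phosphatase, were between the stricter floor and the high limit, as were Myh11 and Actg2. So were the cytoskeletal genes Smtn (3.81), Lmod1 (3.64), Synm (3.65) and Des (3.78), whose desmin and synemin form intermediate filaments. Jph2 (3.75), Mrvi1 (3.62) and Casq2 (3.56), which serve calcium handling, and the integrin gene Itga8 (3.52) lay just above the stricter floor. Synpo2 (2.87), the potassium channel subunit gene Kcnmb1 (3.18) and Myocd (2.93) were between the floors. Pln (1.83), the calcium pump inhibitor phospholamban, was the 1 gene not above the floor.

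All 12 genes of SRF and its partners passed the floor and 7 the high limit, against 62.0% and 25.0% of named genes. Myocd encodes myocardin, the partner found mainly in cardiac and smooth muscle, and was between the floors. Of the related partners that respond to free actin, Mrtfa had a log2 value of 6.05, above the high limit. Mrtfb had 4.83, the average of probe sets at 6.27 and 3.38, the lower of which was just under the stricter floor. The ternary complex factors, which bind SRF at early-response genes, had log2 values of 5.54 for Elk1, 7.47 for Elk3 and 4.64 for Elk4. Of the TEAD factors, Tead1 had a log2 value of 7.58 and Tead4 of 4.89. Klf4 (8.78), a pluripotency factor that in smooth muscle cells holds back contractile genes, Klf5 (7.54) and Gata6 (5.26) complete the list.

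Genes outside the contractile set that SRF and the MRTFs are known to activate were above both floors, and most were above the high limit. Of 18 such cytoskeletal and matricellular genes, 18 were above the stricter floor and 15 above the high limit (median 7.64), against 47.4% and 25.0% of named genes. They include Vcl (8.24), Zyx (7.71) and Flna (8.55) of focal adhesions and actin networks, and Fhl1 (5.22), which was not above the high limit. Of 14 such genes with a promoter window, 5 held an exact CArG box, against 1.81% of all genes with a window. These genes were listed as known SRF targets, so that share describes the list and is not a test. Those of Vcl and Fhl1 are shown here to set them beside those of the contractile genes. The windows of Zyx and Flna held no exact box.
Vcl, at -227 to -218 (chromosome 14): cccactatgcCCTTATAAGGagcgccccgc
Fhl1, at -102 to -93 (chromosome X): ccttggatcaCCTAAAATGGttaagaattt
Of 7 early-response genes of SRF, 7 were above the stricter floor and 4 above the high limit (median 5.35), against 47.4% and 25.0%. Egr1 (5.72) and Fos (5.35) were above the high limit, whereas Egr3 (4.44) and Egr2 (4.13) were not.

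Of 12 measured genes that control contraction, 10 were above the floor, 8 above the stricter floor and 5 above the high limit (median 4.55), against 62.0%, 47.4% and 25.0% of named genes. Mylk, the myosin light chain kinase of smooth muscle, had a log2 value of 3.10 and was between the floors. Mylk2 of skeletal muscle had 2.74, whereas Mylk3 (2.28) of the heart and Mylk4 (2.04) were not above the floor. The 5 above the high limit, named after their values were seen, were Ppp1r14b (7.67), Rock1 (7.50), Ppp1r12a (7.39), Ppp1cb (6.21) and Rhoa (5.55). Ppp1cb was averaged over probe sets at 4.15 and 8.27, and Rhoa over 3 between 2.90 and 9.47.

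**Figure D4:**
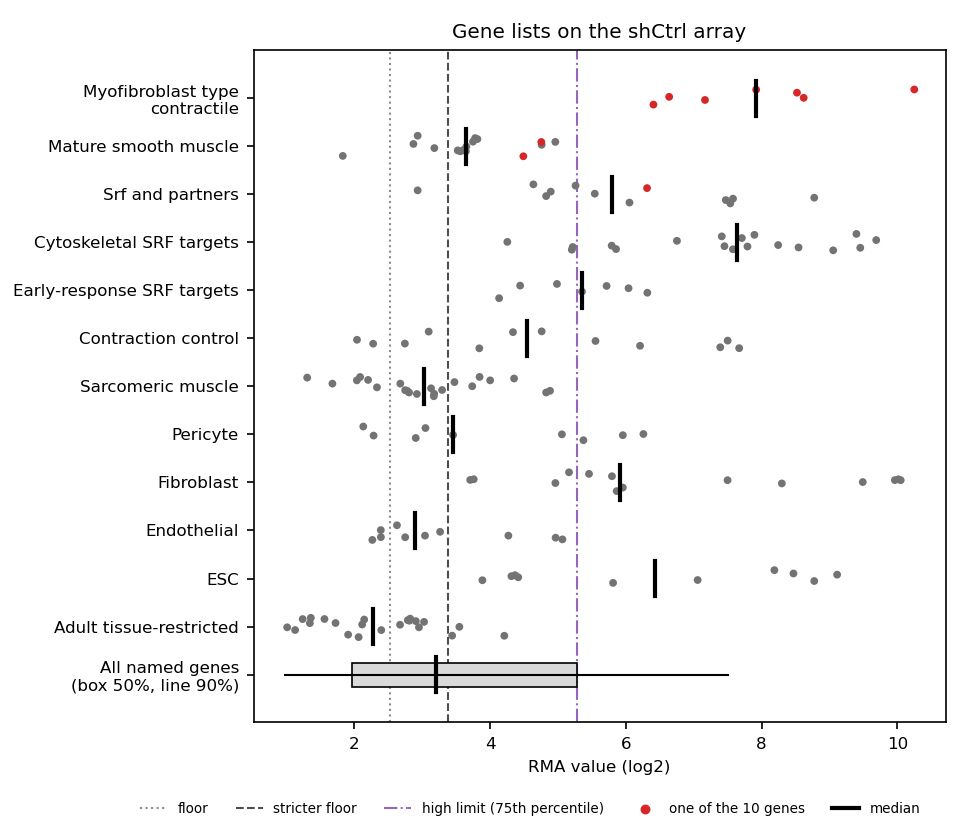
Each point is the RMA value (log2) of 1 gene, grouped by list, with the list median as a black bar and the 10 contractile genes in red. Vertical lines are the floor, the stricter floor and the high limit, and the box gives all named genes. The 7 myofibroblast type genes lie right of the high limit (median 7.92), and the 16 mature smooth muscle genes left of it (median 3.65).

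Markers of the other cells that could give this RNA were read beside these levels. Of all named genes, 47.4% were above the stricter floor and 25.0% above the high limit. All 14 fibroblast genes were above the stricter floor and 10 above the high limit (median 5.91, range 3.71 to 10.05), with Col1a1 at 7.50, Col1a2 at 5.16 (probe sets at 3.60 and 6.73), Col3a1 at 4.96 and Pdgfra at 5.80. Of 15 matrix and adhesion genes of myofibroblasts, 14 were above the stricter floor and 10 above the high limit (median 7.18), with Tnc at 9.94, Cdh11 at 8.97, Postn at 8.58 and Palld at 4.53. The ESC genes were 10 of 10 above the stricter floor, with 6 above the high limit (median 6.44). Zfp42 (9.11), Nanog (8.47) and Sox2 (7.06) were above the high limit, whereas Pou5f1 (4.37) was not. Markers of the labelled cells and of fibroblasts were thus both present on the array that held the contractile genes. The part that feeder cells had in these values was not tested, and in such a mixture fewer cells of a type and less RNA per cell cannot be told apart.

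Lists of other contractile or vascular cells were read against the shares of all named genes, 62.0% above the floor, 47.4% above the stricter floor and 25.0% above the high limit. Of 22 sarcomeric muscle genes, 16 were above the floor, 7 above the stricter floor and 0 above the high limit (median 3.03). Of 9 pericyte genes, 7 were above the floor, 5 above the stricter floor and 3 above the high limit (median 3.46). Cspg4 (3.46), Abcc9 (3.05) and Rgs5 (2.90, probe sets at 1.63 and 4.18) passed the floor, and Kcnj8 (2.28) and Higd1b (2.13) did not. The 3 above the high limit were Mcam (6.26), Pdgfrb (5.96) and Anpep (5.38), and Notch3 had 5.06. These pericyte genes were named after their values were seen, and Pdgfrb is also on the fibroblast list. Of 10 endothelial genes, 7 passed the floor and 3 the stricter floor (median 2.90). Pecam1 (5.07), Cdh5 (3.26) and Tek (3.04) were above the floor, whereas Tie1 (2.27), Emcn (2.39) and Cldn5 (2.39) were not. For comparison, 10 of 22 genes typical of differentiated organs passed the floor, and 3 passed the stricter floor (median 2.27), with Alb at 1.36, Cyp2e1 at 2.14, Apoa2 at 3.55 and Ttr at 2.12.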

How the data were processed

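The authors deposited log2 values of 41345 probe sets for the shCtrl array, made, per the submitters' processing notes, with Affymetrix Power Tools and RMA (background correction, normalization across arrays, 1 summary a probe set). Not given in the sources used here are versions, the genome build and which arrays shared the normalization, on which each value depends. The log base was taken as 2 from the range of values (-0.13 to 12.27). Genes were named from probe sets with 1 symbol (23521), with the mean taken for the 1082 genes that had more than 1. The floor was set on 1108 olfactory receptor probe sets, of which 5.05% lie above it by construction. The members, the lists and the limits were chosen with earlier results of these data known.

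The rule for named genes took every member, every actin, tropomyosin, calponin, transgelin, mature smooth muscle and SRF partner gene, the opening 4 genes of all remaining lists, and those on a side of the floor with 5 or fewer. Motifs were searched in 32851 RefSeq windows of GRCm38.p6. The counting and the motif search were checked on simulated data. With 1 array no other gene could be compared for a like pattern. Python 3.11.15, numpy 2.4.6, pandas 2.3.3 and matplotlib 3.10.9 were used.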

Additional observations from a re-analysis of the deposited data

How the results depend on the processing

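No paired analysis was possible because the shCtrl array alone was used here. All 10 contractile genes stayed above the floor when it was moved to the stricter floor, to a limit set on 22 adult tissue-restricted genes (their 95th percentile, 3.54) or to the median of named genes. The high limit, added after the data were seen, was passed by 8 of them. Each has 1 probe set, so their median, 6.90, did not change with the choice of probe set. Of the other lists, these counts moved beyond the tolerance for a count (1.5 times) because the limit was higher. At the stricter floor they were 5 for myosin light chains, 7 for sarcomeric, 3 for endothelial and 3 for adult tissue-restricted genes. At the adult tissue-restricted limit they were 4, 6, 3 and 2 for the same lists and 4 for pericyte genes, and at the median 8 for sarcomeric, 4 for endothelial and 3 for adult tissue-restricted genes. Above the high limit they were 0 for mature smooth muscle, 7 for SRF partners, 4 for early-response, 3 for actin, 3 for myosin light chain, 2 for myosin heavy chain and 5 for contraction control genes. There they were also 0 for sarcomeric, 3 for pericyte, 0 for endothelial, 6 for ESC and 0 for adult tissue-restricted genes. With 1 letter of the CArG box changed, 5 of 7 genes had a match. At the floor, the highest or lowest probe set moved none of the 18 list counts beyond the tolerance. That choice was not run at the high limit, which the higher probe set of Smtn (5.87) would pass. The higher probe sets of Tpm3 (6.87), Mrtfb (6.27) and Col1a2 (6.73), among others, would pass it too. The lowest probe sets of Actg1 (3.41), Myl12a (4.39), Ppp1cb (4.15) and Rhoa (2.90), among others, would fall under it. Counts at the high limit thus depend on the probe set in other lists as well. The use of 1 array, and its signal over the floor, limit the precision.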
